A study of Mus musculus with 12 samples.

Results

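The genes followed here were 8 transcription factors and markers of the primitive endoderm (PrE): Gata6, Gata4, Sox17, Sox7, Hnf4a, Foxa2, Pdgfra and Rspo3. They were chosen by name, and all 8 were present among the 34245 genes of the mRNA-Seq table. The study asked how p38-MAPK activity acts on the maturing mouse blastocyst, and measured mRNA in 12 libraries, each from 30 pooled blastocysts. Embryos of F1 hybrid (C57Bl6 x CBA/W) parents were grown in culture from the 2-cell stage, and at E3.5 they were placed either in the solvent DMSO (control) or in 20 µM SB220025, a compound that blocks p38-MAPK (p38-MAPKi). They were collected 4, 7 or 10 h later, which gave 6 groups of 2 libraries. Control and inhibited embryos alike came from superovulated females. RNA came from whole blastocysts, which contain trophectoderm (TE) cells, uncommitted inner cells and cells on the way to epiblast (EPI) or PrE. Fewer cells of a type and less RNA per cell therefore cannot be told apart.

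The PrE is the epithelium that forms on the blastocyst-cavity face of the inner cell mass (ICM) and later builds the yolk sac endoderm. ICM cells at first hold both the EPI factor NANOG and the PrE factor GATA6. Fibroblast growth factor 4 from the future EPI cells, read through FGF receptors and the ERK pathway, lets some ICM cells keep GATA6 and switch on the receptor PDGFRA, then SOX17, GATA4 and SOX7 in sequence, while NANOG is lost there. HNF4A and FOXA2 are endoderm factors of the later PrE and its derivatives, and RSPO3 is a secreted enhancer of WNT signalling.

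Values are log2 RPKM (reads scaled to transcript length and library depth) for each library, and levels are given here as RPKM. A gene without a read had been entered as 0.9 of a read, from which whole reads were recovered and the depth of each library was read as 11242313 to 24457312. The p38-MAPKi library of replicate 1 at E3.5 + 7 h had the lowest depth, and its correlation with replicate 2 across 11590 genes was 0.924, against 0.969 to 0.981 in the other 5 groups. Markers of other embryonic cells were plentiful: the 15 EPI markers summed to between 1334 and 1969 RPKM per library and the 16 TE markers to between 2106 and 3033 RPKM. The 8 PrE genes together summed to between 95.6 and 145.9 RPKM, a sum carried by Gata6, which alone had 80.9 to 129 RPKM. These sums do not measure how many cells of each type were present. Cumulus and granulosa cell markers (6 genes, of which Fshr, Has2 and Ptx3 had no read) summed to at most 1.203 RPKM and blood markers (4 genes, of which Hbb-bs, Hbb-bt and Ptprc had no read) to at most 1.01 RPKM. For later visceral and definitive endoderm (6 genes), Ttr and Cer1 had no read, and the sum of 7.25 to 11.95 RPKM was carried by Hhex, whose median was 9.07 RPKM.

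The 8 genes spanned a wide range of levels per length. Gata6 was by far the most abundant, with a median of 105 RPKM over the 12 libraries (80.9 to 129 RPKM), which placed its mean log2 level 466th from the top of all genes. Pdgfra had a median of 7.85 RPKM (4.36 to 10.3), Hnf4a 4.26 (3.01 to 5.75), Sox17 2.43 (1.16 to 4.38) and Gata4 1.84 (1.07 to 3.86). Gata6 was above Pdgfra in 12 of 12 libraries, by 10.5-fold to 20.4-fold. Pdgfra was above Hnf4a in 12 of 12 libraries, Hnf4a above Sox17 in 11 and Sox17 above Gata4 in 10, but with ratios that came down to 1.07, 0.954 and 0.755, so that these neighbours in the order lay within each other's range. Gata4 was above Sox7 in 12 of 12 libraries, by at least 4.31-fold. The remaining 3 genes never reached 1 RPKM in any library. Sox7 had 134 reads in all 12 libraries together, Rspo3 had 30 and Foxa2 had 2, and Sox7 and Rspo3 were each at 0 reads in some libraries, so their order was not resolved in each library.

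**Figure D1:**
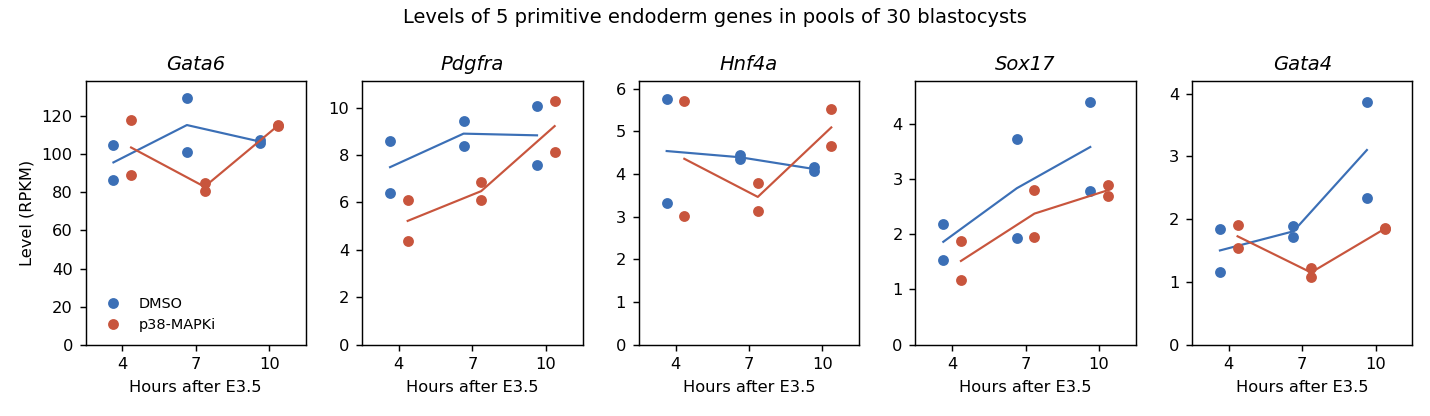
Levels (RPKM, linear axes from 0) of Gata6, Pdgfra, Hnf4a, Sox17 and Gata4 at 4, 7 and 10 h after E3.5 in DMSO (blue) and p38-MAPKi (red). Each point is 1 library of 30 blastocysts and lines join group means. Gata4 was highest in the control libraries at 10 h (3.86 and 2.34 RPKM), and both inhibited libraries at 7 h were below both control libraries for Gata6, Pdgfra, Hnf4a and Gata4.

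Genes entered a comparison if 2 or more of its libraries reached 1 RPKM, and the same 5 genes (Gata6, Gata4, Sox17, Pdgfra and Hnf4a) were tested in each of 10 comparisons with limma, with Benjamini-Hochberg adjustment over all genes tested. None of the 5 passed an adjusted p of 0.05 in any of the 10 comparisons. At an unadjusted p under 0.05 stood Pdgfra alone for p38-MAPKi against control at E3.5 + 4 h (9.42% of all genes), Gata6 alone at + 7 h (28.4%) and Gata4 alone at + 10 h (19.8%). The same count was 0 of 5 in control embryos from 4 to 7 h (4.79% of all genes), 1 from 7 to 10 h (Gata4; 3.79%) and 2 from 4 to 10 h (Gata4 and Sox17; 15.2%), and 2 of 5 in inhibited embryos from 4 to 10 h (Sox17 and Pdgfra; 22.2%). For the effects of inhibition compared between times it was 0 (7 against 4 h; 6.83% of all genes), 2 (10 against 7 h, Gata6 and Hnf4a; 26.3%) and 0 (10 against 4 h; 9.86%). Voom on the recovered reads, limma's method for counts, also called 0 of the members in each of the 10 comparisons. Its share of all genes called was 0.0555%, 10.3% and 3.95% for inhibition at 4, 7 and 10 h, and 0.53% in inhibited embryos from 4 to 10 h. In control embryos it was 0.00619% from 4 to 7 h, 0% from 7 to 10 h and 1.17% from 4 to 10 h, and for the effects compared between times 0% (7 against 4 h), 4.4% (10 against 7 h) and 0.00566% (10 against 4 h). With 2 libraries per group, a permutation of labels could not give a p below 0.333, so single genes were not tested that way.

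**Figure D2:**
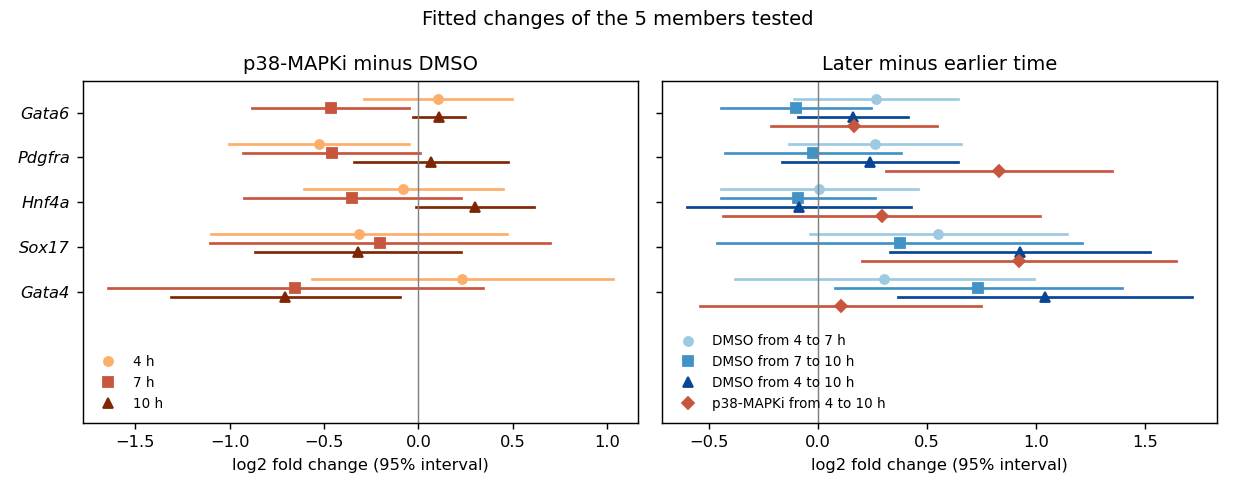
Fitted log2 fold changes with 95% intervals (limma) for the 5 genes tested. On the left, p38-MAPKi minus DMSO at 4, 7 and 10 h; on the right, the later minus the earlier time in DMSO (blue) and in p38-MAPKi (red). Gata4 and Sox17 had the highest values over time in control embryos (1.04 and 0.93), and the 4 to 10 h value of Gata4 in inhibited embryos was 0.10.

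Over culture time in control embryos, the highest values of the 5 genes tested belonged to Gata4 and Sox17, the zinc finger and HMG box factors that follow Gata6 in the PrE programme. Gata4 (chr14:63198922-63271692, minus strand, GRCm38) had 1.15 and 1.85 RPKM in the 2 control libraries at 4 h, 1.89 and 1.72 at 7 h, and 3.86 and 2.34 at 10 h. Both 10 h libraries lay above all 4 earlier ones, on 287 and 213 reads against 77 to 157. How many of all genes did the same was not counted. Against 4 h alone, 42.3% of all genes tested had both 10 h libraries above. From 4 to 10 h the log2 fold change was 1.04 (SE 0.31, limma adjusted p = 0.169), and from 7 to 10 h it was 0.74 (SE 0.28, limma adjusted p = 0.9997).

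Sox17 (chr1:4490931-4497354, minus strand) had 1.53 and 2.19 RPKM at 4 h, 3.72 and 1.94 at 7 h and 4.38 and 2.77 at 10 h in control embryos. Its replicates at 7 h differed by about as much as the times did, and the 10 h libraries were above those of 4 h but not above both of 7 h. The log2 fold change from 4 to 10 h was 0.93 (SE 0.27, limma adjusted p = 0.163). Without replicate 2 of the control at 4 h, the limma adjusted p was 0.0387 for Gata4 and 0.0432 for Sox17, with log2 fold changes of 1.38 and 1.19, and 11.5% of all genes were called. That fit has 1 library at 4 h, which is assumed to vary like the 10 h pair, the only pair left to show a spread between replicates.

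Gata6 (chr18:11052510-11085635, plus strand), the earliest PrE factor, spanned 86.7 to 129 RPKM in the same embryos. It had 86.7 and 105 RPKM at 4 h, 101 and 129 at 7 h and 106 and 108 at 10 h. Both 10 h libraries were above both 4 h libraries by a small margin, with a log2 fold change of 0.16 (SE 0.12, limma adjusted p = 0.515). In all, 3 of the 5 genes tested (Gata6, Gata4 and Sox17) had both 10 h libraries above both 4 h libraries and none had both below, where 42.3% of the 10825 genes tested were above and 8.06% below; 0.471% of genes were called. The median log2 fold change of these 5 genes was 0.24, and that of all genes tested was 0.14.

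Pdgfra and Hnf4a overlapped between 4 and 10 h in control embryos. Pdgfra (chr5:75152292-75198215, plus strand), the receptor for platelet-derived growth factor A and a surface marker of PrE cells, had 6.41 and 8.57 RPKM at 4 h, 9.43 and 8.38 at 7 h and 10.1 and 7.57 at 10 h. Hnf4a (chr2:163506808-163572910, plus strand), a nuclear receptor of visceral endoderm and liver, had 3.33 and 5.75 RPKM at 4 h, 4.44 and 4.35 at 7 h and 4.18 and 4.065 at 10 h. From 4 to 10 h the log2 fold changes were 0.24 (SE 0.18) for Pdgfra and -0.09 (SE 0.23) for Hnf4a. In the shorter steps, no gene of the 5 had non-overlapping groups from 4 to 7 h, where 29% of all genes had, and 0.492% were called. From 7 to 10 h Gata4 was above and Hnf4a below, where 30.7% of all genes did not overlap and 0.0552% were called.

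In p38-MAPKi embryos Gata4 had 1.92 and 1.54 RPKM at 4 h, 1.23 and 1.07 at 7 h and 1.84 and 1.85 at 10 h. The 4 h and 10 h libraries overlapped, and the log2 fold change from 4 to 10 h was 0.10 (SE 0.27, limma adjusted p = 0.826). The difference of this value from that of the controls, tested as an interaction, was -0.94 (SE 0.45, limma adjusted p = 0.522). Sox17 had 1.87 and 1.16 RPKM at 4 h, 2.80 and 1.95 at 7 h and 2.69 and 2.90 at 10 h under inhibition. Both 10 h libraries were above both 4 h libraries, with a log2 fold change of 0.92 (SE 0.30, limma adjusted p = 0.171).

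Pdgfra in inhibited embryos started below the controls and overlapped them at 10 h. It had 6.09 and 4.36 RPKM at 4 h, 6.87 and 6.09 at 7 h and 10.3 and 8.15 at 10 h. The 10 h libraries lay above the 4 inhibited libraries of the earlier times, an order whose share among all genes was not counted. The log2 fold change from 4 to 10 h was 0.83 (SE 0.22, limma adjusted p = 0.141). Of the 5 genes, Sox17 and Pdgfra were above in both libraries at 10 h and none was below, where 35.4% of 10949 genes were above and 25.6% below. In this comparison limma called 0 of all genes at an adjusted p of 0.05 (0% of those tested), and voom called 88. Without replicate 1 of p38-MAPKi at 4 h, 4 of the 5 genes were called higher at 10 h by limma, with log2 fold changes of 0.37 for Gata6, 1.26 for Sox17, 1.07 for Pdgfra and 0.75 for Hnf4a and adjusted p-values of 0.0128, 0.00501, 0.00315 and 0.0137. Leaving out that library raised the number of genes called from 0 to 4741 (44% of all genes), and the library that remained at 4 h is then assumed to vary like the 10 h pair.

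At E3.5 + 4 h of inhibition, Pdgfra was the member set apart from the controls. Its 2 inhibited libraries (6.09 and 4.36 RPKM) were below both control libraries (6.41 and 8.57 RPKM), although the nearest pair differed by little. The log2 fold change was -0.52 (SE 0.24, limma adjusted p = 0.455), and it ran from -0.77 without replicate 1 of p38-MAPKi to -0.28 without replicate 2. The other 4 genes overlapped between the groups, with log2 fold changes of 0.11 for Gata6, 0.23 for Gata4, -0.31 for Sox17 and -0.08 for Hnf4a. Among all 10781 genes tested at this time, 40.4% did not overlap (13.7% below) and 0.909% were called.

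At E3.5 + 7 h and on the deposited scale, 4 of the 5 genes tested had both inhibited libraries below both control libraries. Of the 10940 genes tested 38.7% did so, and 2.13% of all genes were called. Gata6 had 80.9 and 85.0 RPKM under inhibition against 101 and 129 in controls, with a log2 fold change of -0.47 (SE 0.18, limma adjusted p = 0.143). Gata4 had 1.23 and 1.07 RPKM against 1.89 and 1.72, a log2 fold change of -0.65 (SE 0.44, limma adjusted p = 0.349). These were the lowest Gata6 values of the 12 libraries, and the Gata4 values rested on 54 and 73 reads.

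Pdgfra at 7 h had 6.87 and 6.09 RPKM under inhibition against 9.43 and 8.38 in controls, with a log2 fold change of -0.46 (SE 0.21, limma adjusted p = 0.183). Hnf4a had 3.795 and 3.14 RPKM against 4.44 and 4.35, with a log2 fold change of -0.35 (SE 0.25, limma adjusted p = 0.385). Sox17 overlapped between the groups (log2 fold change -0.20, SE 0.40). The median log2 fold change of the 5 genes was -0.46, and that of all genes tested at this time was -0.14. The deposited scale itself thus put the middle gene lower in inhibited embryos. Over genes that reached 1 RPKM in 2 of the 12 libraries, the median log2 RPKM was 2.68 and 2.81 under inhibition against 2.92 and 2.95 in controls. Measured from these medians, Hnf4a overlapped between the groups. The log2 fold changes of the 5 genes kept their sign under the other settings tried on all libraries. Across these, Gata6 ran from -0.67 to -0.27, Gata4 from -0.65 to -0.38, Pdgfra from -0.46 to -0.18 and Hnf4a from -0.35 to -0.15. Sox17 ran from -0.20 to -0.00752, which is next to 0.

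Without replicate 2 of p38-MAPKi at 7 h, the log2 fold changes were -0.55 for Gata4, -0.37 for Pdgfra and -0.21 for Hnf4a. Replicate 1, the library of lowest depth, had the higher value of its pair for Gata4, Sox17, Pdgfra and Hnf4a and the lower one for Gata6. Without it the log2 fold changes were -0.43 for Gata6, -0.75 for Gata4, -0.46 for Sox17, -0.55 for Pdgfra and -0.49 for Hnf4a, and none of the 5 was called by limma (lowest adjusted p = 0.185), where 5.42% of all genes were.

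At E3.5 + 10 h the members lay on both sides of the controls. Gata4 had 1.84 and 1.85 RPKM under inhibition, on 158 and 177 reads, against 3.86 and 2.34 RPKM in controls. Both inhibited libraries were below both controls, with a log2 fold change of -0.70 (SE 0.25, 95% interval -1.31 to -0.10, limma adjusted p = 0.197). It was -0.34 without replicate 1 of the control and -1.06 without replicate 2. Gata6 and Hnf4a were on the other side: Gata6 had 114.9 and 115.3 RPKM against 106 and 108, with a log2 fold change of 0.11 (SE 0.06, limma adjusted p = 0.342). Hnf4a had 5.53 and 4.66 RPKM against 4.18 and 4.065, with a log2 fold change of 0.30 (SE 0.13, limma adjusted p = 0.265).

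Sox17 (2.69 and 2.90 RPKM under inhibition, 4.38 and 2.77 in controls) and Pdgfra (10.3 and 8.15 against 10.1 and 7.57) overlapped between the groups at 10 h. Their log2 fold changes were -0.32 (SE 0.23) and 0.07 (SE 0.17). With 2 members above and 1 below, the 5 genes stood beside 22.6% of 10959 genes above, 29.6% below and 0.803% called. The control libraries at 10 h also enter the comparison over control time, so the Gata4 values in the 2 comparisons share them.

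The difference between the effects of inhibition at 2 times was tested as an interaction in 8 libraries. Between 7 and 10 h the effect on Gata6 moved by 0.58 on the log2 scale (SE 0.18, limma adjusted p = 0.104) and that on Hnf4a by 0.65 (SE 0.24, limma adjusted p = 0.148). Without replicate 1 of the control at 7 h, Gata6 was called (0.75, limma adjusted p = 0.0273), as were 7.53% of all genes, with the remaining 7 h control assumed to vary like the other groups. For Gata4 that difference was -0.05 (SE 0.42). Between 4 and 10 h the effect on Gata4 moved by -0.94 (SE 0.45, limma adjusted p = 0.522), the effect on Pdgfra by 0.59 (SE 0.32, limma adjusted p = 0.557) and that on Sox17 by -0.01 (SE 0.44). Of all genes, limma called 0.00877% in the comparison of 10 with 7 h, 0.00884% in that of 7 with 4 h and 0% in that of 10 with 4 h, where voom called 777, 0 and 1 genes.

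Ratios within a library do not depend on how the library was scaled. They reuse the values given above, so they are not separate evidence, and ratios of other genes were not counted. As a share of Gata6 RPKM, Gata4 stood at 3.65% and 2.18% in the control libraries at 10 h. In the other 10 libraries it lay between 1.26% and 1.87%, the inhibited libraries at 10 h having 1.60% and 1.61%. The Sox17 share of Gata6 was 4.14% and 2.58% in controls at 10 h and 2.34% and 2.51% under inhibition. At 4 h it was 1.77% and 2.09% in controls and 1.58% and 1.31% under inhibition. At 7 h it was 3.68% and 1.497% in controls and 3.45% and 2.29% under inhibition, so that the groups overlapped. Against Nanog, the EPI factor, Gata6 stood between 64.1% and 118.7% in all 12 libraries, with 95.1% and 100.9% in controls at 10 h and 118.7% and 107.5% under inhibition.

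**Figure D3:**
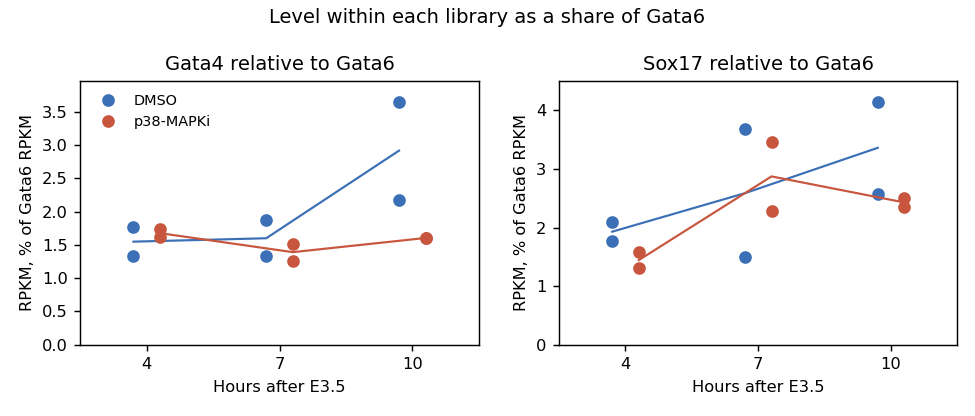
Gata4 (left) and Sox17 (right) as a percentage of the Gata6 level in the same library (RPKM over RPKM, axes from 0) at 4, 7 and 10 h after E3.5, DMSO in blue and p38-MAPKi in red. Each point is 1 library and lines join group means. The control libraries at 10 h (3.65% and 2.18%) held the 2 highest Gata4 shares of the 12.

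Sox7, an HMG box factor of the same SOX subgroup as Sox17 that marks PrE cells late in their sorting, was near the limit of detection (chr14:63943673-63950732, plus strand). In control embryos it had 4 and 7 reads at 4 h, 9 and 3 at 7 h and 3 and 6 at 10 h. In inhibited embryos it had 35 and 7 reads at 4 h, 0 and 7 at 7 h and 31 and 22 at 10 h. The 2 inhibited libraries at 10 h were above all 6 control libraries, though 1 of the inhibited libraries at 4 h held more reads than either. The share of all genes with such an order was not counted.

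Per mapped read and over both libraries, Sox7 was 5.36-fold higher in inhibited than in control embryos at 10 h, on 53 reads against 9. It did not pass the filter of 1 RPKM. In the fit without a filter limma gave an adjusted p = 0.139, and voom on the recovered reads an adjusted p = 0.218. The direction of Sox7 at 10 h was therefore opposite to that of Gata4 and neither passed the test.

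Rspo3 (chr10:29452416-29535867, minus strand) was found mainly in control embryos at 10 h. It had 0 and 4 reads at 4 h, 3 and 2 at 7 h and 12 and 6 at 10 h in controls, and 0 and 1, 0 and 2, and 0 and 0 reads under inhibition at the same times. Of its 30 reads, 18 came from the 2 control libraries at 10 h, where the inhibited libraries held none on a higher combined depth. In control embryos it was 3.76-fold higher per mapped read at 10 h than at 4 h, on 18 reads against 4. With 3 reads over the group put in place of the count of 0, Rspo3 was 6.59-fold higher per mapped read in control than in inhibited embryos at 10 h. This is not a lower bound, as the 18 control reads themselves had a 95% counting interval of 10.7 to 28.4. Without a filter limma gave an adjusted p = 0.118, and voom an adjusted p = 0.206.

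Foxa2 (chr2:148042877-148046969, minus strand), a forkhead factor of the endoderm, was not detectable at this depth in 10 of 12 libraries and had 1 read in a control and 1 in an inhibited library at 10 h. A library at 0 reads was taken to allow up to 3, which is 0.0520 to 0.113 RPKM across those 10 libraries. These limits cover counting error only.

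**Figure D4:**
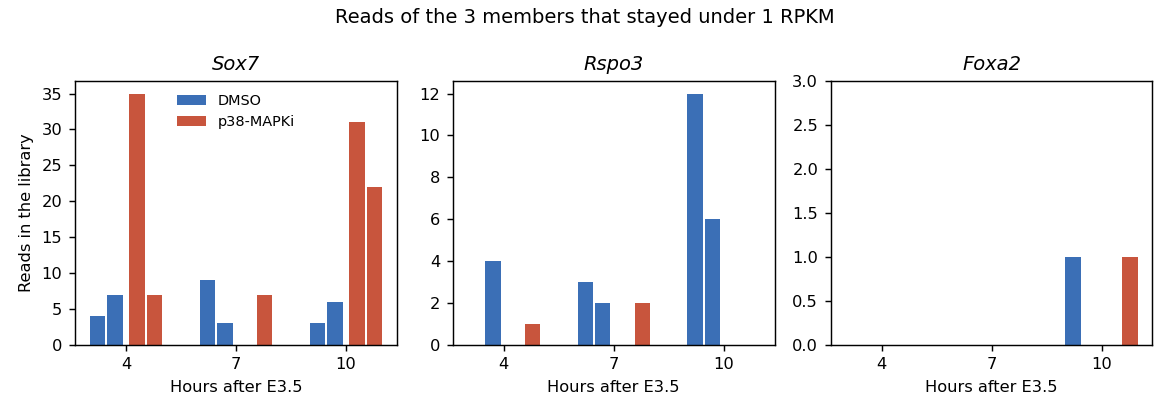
Reads per library for Sox7, Rspo3 and Foxa2 (linear axes from 0) at 4, 7 and 10 h after E3.5, the 2 DMSO libraries of each time in blue and the 2 p38-MAPKi libraries in red, with no bar for 0 reads. Sox7 had 31 and 22 reads under inhibition at 10 h against 3 and 6 in controls, and Rspo3 had 12 and 6 reads in controls against 0 and 0.

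The genes closest to each member in pattern were found by the root mean square difference of centred log2 RPKM over the 12 libraries, among 11589 other genes. Tnpo2 (0.05) and Zxdc (0.06) were nearest to Gata6, Spidr (0.25) and Mfsd9 (0.25) to Gata4, and Zfp59 (0.13) and Gcnt1 (0.15) to Pdgfra. Snx14 (0.15) and Cpsf7 (0.16) were nearest to Hnf4a. For Sox17 the nearest were Lama1 (0.22), a laminin chain of the basement membrane that PrE cells lay down, and Ppp1r1a (0.26). Between members, the smallest difference was that of Gata6 and Hnf4a (0.21) and the greatest that of Gata6 and Sox17 (0.51). The root mean square of a gene's own centred values was 0.21 for Gata6, 0.31 for Hnf4a and 0.51 for Sox17. A gene that did not change at all would thus be about as near to Gata6 as Hnf4a was. The median difference to all genes was 0.30 for Gata6 and 0.55 for Sox17.

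Of the 8 genes, promoters of Pdgfra, Hnf4a and Foxa2 were matched in RefSeq (GRCm38.p6), and Gata6, Gata4, Sox17, Sox7 and Rspo3 are named here without one. The windows of the 2 expressed genes among the 3 are shown, because GATA, SOX and HNF4 proteins are themselves members of the set. Each covers 220 bases and stops 30 bases short of a RefSeq start, at chr5:75152001-75152220 for Pdgfra, and at chr2:163506607-163506826 and chr2:163546905-163547124 for the upstream and downstream starts of Hnf4a (plus strand in all).
Pdgfra: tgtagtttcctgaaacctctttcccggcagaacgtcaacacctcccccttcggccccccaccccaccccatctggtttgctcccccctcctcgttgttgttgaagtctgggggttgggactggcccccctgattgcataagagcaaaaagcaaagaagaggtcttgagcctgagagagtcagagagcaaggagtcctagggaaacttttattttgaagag
Hnf4a upstream: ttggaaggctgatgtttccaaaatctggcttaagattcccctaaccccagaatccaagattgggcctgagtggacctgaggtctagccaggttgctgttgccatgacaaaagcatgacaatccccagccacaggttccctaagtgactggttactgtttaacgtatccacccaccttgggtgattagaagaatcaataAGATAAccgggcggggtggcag
Hnf4a downstream: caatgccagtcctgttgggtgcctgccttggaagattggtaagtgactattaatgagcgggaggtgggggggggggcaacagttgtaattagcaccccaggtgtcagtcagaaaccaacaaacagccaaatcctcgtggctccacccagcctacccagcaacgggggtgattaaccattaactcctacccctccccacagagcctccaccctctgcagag
Capitals mark the only match found in these windows, which lay 52 bases before the upstream start of Hnf4a. Letters were searched on both strands, and shares are of 32851 RefSeq promoters cut to the same length. For the zinc finger GATA factors these were AGATAA, held by 9.04% of promoters. The variant TGATAA was held by 7.24%. For the HMG box factors ATTGTT was searched (8.65%). For the nuclear receptor it was CAAAGTCC (1.03%).

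The members were set beside 26 other genes of the PrE, mostly basement membrane and endocytic genes, of which 20 were tested at 7 h. At E3.5 + 7 h limma called 2 of the 20 lower and 1 higher in inhibited embryos, where 1.2% of all genes were called lower and 0.932% higher. Lrp2, the endocytic receptor megalin, fell (log2 fold change -1.46, SE 0.18, limma adjusted p = 0.0369), as did its adaptor Dab2 (-1.003, SE 0.19, limma adjusted p = 0.0461). Cited1, a transcriptional co-activator, rose (0.83, SE 0.17, limma adjusted p = 0.0481).

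The median log2 fold change of these 20 genes was -0.36 at 7 h, beside -0.14 for all genes, and Fgfr2 (-0.92, limma adjusted p = 0.0544), Lamb1 (-0.55, adjusted p = 0.0983) and Lama1 (-0.21, adjusted p = 0.800) did not pass the test. No gene of the list was called at 4 h (median -0.24) or at 10 h (median 0.00), where 4 and 2 genes had an unadjusted p under 0.05 on the lower side and 0 and 3 on the higher side. Among all genes tested these shares were 3.03% and 11.6% lower and 6.39% and 8.26% higher. In controls from 4 to 10 h, Cited1 fell (log2 fold change -0.84, SE 0.12, limma adjusted p = 0.0104) and no other gene of the list was called. The calls at 7 h were lost when libraries were centred on their median, without the variance trend, with the length trend removed, and without replicate 2 of the control at 7 h (0 called in each). Quantile normalization and leaving out replicate 1 of the control at 7 h each kept 1 call (Lrp2). Without replicate 1 of p38-MAPKi at 7 h, 3 genes were called lower and 2 higher. Other settings called more than the 3 genes: 4 without a filter (with Apoe), 5 with a filter of 10 RPKM or on log2(RPKM + 1) (with Fgfr2 and Lamc1), 6 in the fit of 12 libraries (with Lamb1 also), and 7 with the replicate block or voom (with Apoe also). Of all genes, these settings called 3.61% without a filter, 18.6% with that of 10 RPKM, 4.65% on log2(RPKM + 1), 21.7% in the fit of 12 libraries, 18.5% with the block and 10.3% by voom.

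**Figure D5:**
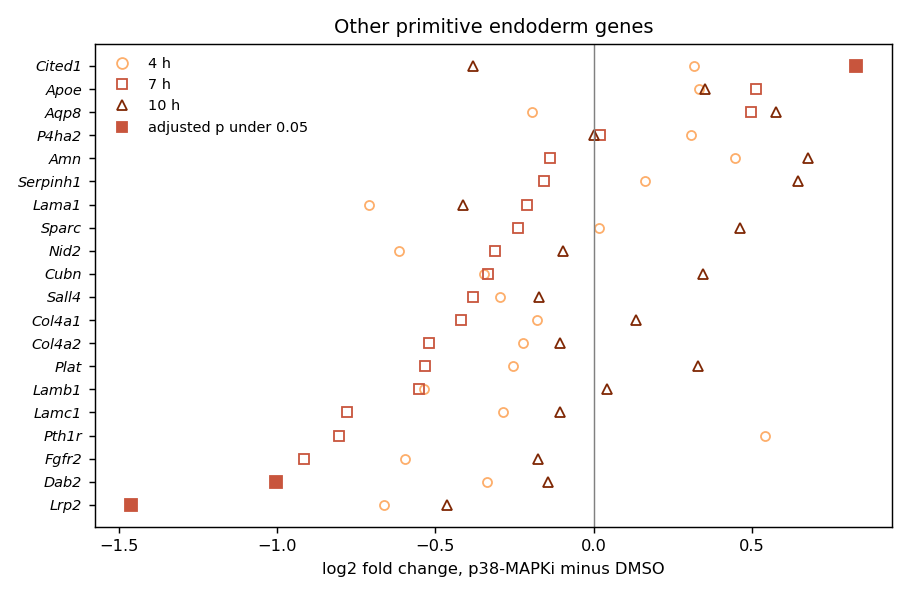
log2 fold change of p38-MAPKi minus DMSO at 4 h (circles), 7 h (squares) and 10 h (triangles) for the other PrE genes that passed the filter, in order of their 7 h value. Filled symbols mark a limma adjusted p under 0.05. Lrp2 and Dab2 (-1.46 and -1.003) and Cited1 (0.83) were the filled points, all at 7 h.

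Of 20 genes of the FGF and ERK pathway, which carries the signal for PrE formation, 18 were tested at 7 h. Limma called 3 lower and none higher in inhibited embryos, with a median log2 fold change of -0.51. These were the adaptor Frs2 (-1.20, limma adjusted p = 0.0456), the exchange factor Sos1 (-1.23, adjusted p = 0.0461) and the phosphatase Dusp4 (-1.17, adjusted p = 0.0487). The ligand Fgf4 had a median of 4.18 RPKM, and its value was -0.25 on the log2 scale (limma adjusted p = 0.596), and that of the receptor Fgfr1 was -0.77 (adjusted p = 0.0636). Fgfr3 was near the filter (median 0.982 RPKM; log2 fold change -0.19, limma adjusted p = 0.867). No gene of the pathway was called at 4 h (6 lower and 2 higher at an unadjusted p under 0.05) or at 10 h (7 lower and 0 higher, beside the shares of all genes given above), and the 4 alternatives named above left 0 calls at 7 h, as did quantile normalization. The fit of 12 libraries called 9 genes of the pathway lower, and the replicate block and voom 6 each (with Fgfr1, Fgfr2 and Etv5). A filter of 10 RPKM and log2(RPKM + 1) gave 4 each. Without replicate 1 of p38-MAPKi at 7 h, 4 were called lower, and without replicate 2, 10 were, where 27.4% of all genes were called.

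Among partners of PDGFRA and RSPO3, 3 of 12 genes were tested and none was called. Pdgfa, the ligand of PDGFRA, was abundant in every library (43.6 to 76.3 RPKM, median 53.4), with log2 fold changes of 0.28, 0.39 and -0.07 at 4, 7 and 10 h (limma adjusted p = 0.706, 0.217 and 0.662). Pdgfb (median 0.643 RPKM), Pdgfc (0.0201) and the second receptor Pdgfrb (0.135) were under the filter.

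Among GATA, SOX, FOXA and HNF relatives, 6 of 13 were tested and none was called. Gata3, a TE factor, had a median of 91.1 RPKM and log2 fold changes of -0.54, -0.68 and -0.30 at 4, 7 and 10 h (lowest limma adjusted p = 0.0652). Gata2 had a median of 8.27 RPKM and Gata1 5.89 RPKM, with log2 fold changes at 7 h of -0.14 and 0.08, and Gata5 had no read in any library. In marker lists of the other cell types, all calls were in TE, with 15 markers tested. At 4 h of inhibition Hand1 rose (1.46, limma adjusted p = 0.00360) and Id2 fell (-0.86, adjusted p = 0.00485), where 0.909% of all genes were called. Dppa1 rose in controls from 4 to 10 h (0.70, limma adjusted p = 0.0194), where 0.471% of all genes were called. With all 12 libraries in one fit no gene was called in either comparison, and at 4 h the same held without a filter, with median centring and with quantile normalization. The median log2 fold change at 7 h was -0.27 for 14 EPI markers tested and -0.22 for 15 TE markers tested. Their part in the values of the PrE genes was not tested.

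For Gata6, Sox17, Pdgfra and Rspo3 an opposite-strand gene shares exon bases in GENCODE M21: 1010001N08Rik with Gata6 (93 bases, 67 to 202 reads against at least 2906 for Gata6), Gm37587 with Sox17 (804 bases, no read), and Gm42802 and Gm42803 with Pdgfra (at most 7 reads and 4 reads). Gm48159, which overlaps Rspo3 over 404 bases, was not among the genes of the table. The kit kept strand, but whether strand was used in counting is not given in the sources used here.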

How the data were processed

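Poly(A) RNA of 12 pools of 30 blastocysts was sequenced from a single end (50 bases). Per the paper's methods, the authors trimmed reads with Trim Galore 0.4.1, mapped them to GRCm38 with HISAT2 2.0.5 and counted them per gene in SeqMonk 1.45.4 (annotation version 90), and they deposited log2 RPKM with replicates apart. All 12 columns were used. Whole reads were recovered for 34244 of 34245 genes (tolerance 0.05 of a read) from gene lengths in GENCODE M21 or, as for Gata6, a search over lengths. Depth, 11242313 to 24457312 reads, sets the counting error of Sox7, Rspo3 and Foxa2 above all.

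Groups came from the sample labels, and replicates were read as separate pools. p-values rest on the spread between 2 libraries per group, which limma draws toward the spread typical of all genes at a similar level. Of 9.04 degrees of freedom for inhibition at E3.5 + 7 h, 7.04 came from the other genes, and 4.60 of 6.60 at E3.5 + 10 h. The members and gene lists were chosen with earlier results of these data known. Named genes are the 8 members, the 2 nearest genes of each expressed member, and, of the lists, the first 4 and any that were called. limma 3.58.1 in R 4.3.3 (lmFit, eBayes with trend) was fitted to the deposited log2 values of the groups compared, over genes that reached 1 RPKM in 2 or more libraries, with a threshold of 0.05 on the adjusted p. At E3.5 + 4 h and in controls from 4 to 7 h it gave the spread of a single gene no weight. The study used DESeq2, which was not run. It needs counts, which are not the deposited unit, and of the tests here only voom used the recovered reads. Alternatives were log2(RPKM + 1), a filter of 10 RPKM or none, libraries centred on their medians or quantile normalized, a fit without the trend or over all 12 libraries, a term for the replicate number, a length trend taken out of each library, and each library left out in turn. Voom on recovered reads (at least 10 in a comparison) was chosen after seeing the data. The procedure was tested on simulated data. Read recovery, ratios and plots used Python 3.11.15 with numpy 2.4.6, pandas 2.3.3 and matplotlib 3.10.9.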

Additional observations from a re-analysis of the deposited data

How the results depend on the processing

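The number of the 5 tested genes that were called stayed at 0 under the alternatives, apart from 3 comparisons. In controls from 4 to 10 h, leaving out each library gave 0 to 2 calls, in inhibited embryos from 4 to 10 h 0 to 4, and for the effect of inhibition at 10 h against that at 7 h 0 to 1. With the replicate block, 2 genes were called in controls from 4 to 10 h (Gata4, limma adjusted p = 0.00332, and Sox17, 0.00370) and 2 in inhibited embryos (Sox17, 0.0285, and Pdgfra, 0.00129), where 4.95% and 16.6% of all genes were called. The block changed no other call of a member. The labels do not say whether the numbers pair the libraries. Correlations of same-numbered deviations lay between -0.163 and 0.139 over the 15 pairs of groups. Taken over many genes at once, they cannot decide this for single genes, so these 4 calls rest on a pairing that is not known.

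Of 723 values of single genes under alternatives, 654 kept direction and call, 11 gained a call and 58 changed sign, none of them a called value. Besides the libraries left out, these were Gata6 at 4 h (-0.0508, quantile normalization) and Hnf4a in controls from 4 to 7 h (-0.00331 with log2(RPKM + 1), -0.10 median centring, -0.12 quantile normalization, -0.00357 length trend removed, -0.0700 voom). They were also Gata4 in inhibited embryos from 4 to 10 h (-0.00250 median centring, -0.11 quantile normalization), Gata4 for 10 h against 7 h (0.00205, voom) and Sox17 for 10 h against 4 h (0.0189 median centring, 0.10 voom).

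With each library left out, these ranges crossed 0. For inhibition at 4 h they were Gata6 -0.10 to 0.31, Gata4 -0.11 to 0.57, Sox17 -0.66 to 0.0281 and Hnf4a -0.54 to 0.38, at 7 h Sox17 -0.67 to 0.27, and at 10 h Sox17 -0.65 to 0.0110 and Pdgfra -0.14 to 0.27. In controls they were Gata4 -0.0364 to 0.65 and Hnf4a -0.39 to 0.40 from 4 to 7 h, Gata6 -0.28 to 0.0743, Sox17 -0.10 to 0.85 and Pdgfra -0.23 to 0.18 from 7 to 10 h, and Hnf4a -0.48 to 0.31 from 4 to 10 h. In inhibited embryos from 4 to 10 h they were Gata6 -0.0386 to 0.37, Gata4 -0.0534 to 0.26 and Hnf4a -0.17 to 0.75. For the effects compared they were Sox17 -0.36 to 0.58, Pdgfra -0.18 to 0.31 and Hnf4a -0.73 to 0.19 (7 against 4 h), Gata4 -0.41 to 0.31 and Sox17 -0.59 to 0.35 (10 against 7 h), and Gata6 -0.20 to 0.21, Sox17 -0.35 to 0.34 and Hnf4a -0.0830 to 0.84 (10 against 4 h). Other ranges kept their sign but moved by over 1.5 times. For inhibition they were Pdgfra -0.77 to -0.28 at 4 h, Gata6 -0.64 to -0.29 and Hnf4a -0.49 to -0.21 at 7 h, and Gata4 -1.06 to -0.34 and Hnf4a 0.18 to 0.42 at 10 h. In controls they were Gata6 0.0874 to 0.44, Sox17 0.0810 to 1.02 and Pdgfra 0.0521 to 0.47 from 4 to 7 h, Gata4 0.38 to 1.10 from 7 to 10 h, and Gata6 0.0248 to 0.30, Gata4 0.68 to 1.40, Sox17 0.60 to 1.26 and Pdgfra 0.0282 to 0.45 from 4 to 10 h. In inhibited embryos Sox17 ran from 0.58 to 1.26. For the effects compared they were Gata6 -0.78 to -0.37 and Gata4 -1.23 to -0.54 (7 against 4 h), Pdgfra 0.32 to 0.73 (10 against 7 h), and Gata4 -1.30 to -0.58 and Pdgfra 0.35 to 0.83 (10 against 4 h). A lone library left in a group was assumed to vary like the other groups.

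Counts over all genes were unstable. The 98, 233 and 88 genes called at 4, 7 and 10 h ran from 0 to 122, 0 to 2512 and 0 to 650 under other settings and from 9 to 424, 0 to 2919 and 78 to 140 with a library left out. The 53, 6 and 51 of the control intervals (4 to 7, 7 to 10 and 4 to 10 h) ran from 0 to 52, 0 to 28 and 0 to 536, and from 10 to 58, 3 to 221 and 46 to 1228. The 0 of inhibited embryos ran from 0 to 1818 and from 52 to 4741, and the 1, 1 and 0 of the effects compared (7 against 4, 10 against 7 and 10 against 4 h) from 0 to 1, 0 to 777 and 0 to 5, and from 0 to 293, 0 to 2905 and 0 to 557. Of calls in controls from 4 to 10 h, 47 were higher and 4 lower, against 25 and 12 with median centring and 30 and 13 with quantile normalization, and at 7 h 102 and 131, against 7 and 5 with quantile normalization. The causes were not tested.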
